A study of Mus musculus with 4 samples.

Results

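C-type lectin receptors of myeloid cells were described in single-cell RNA-sequencing data of the mouse colon. The set held 10 genes (Clec4e, Clec4d, Clec4n, Clec7a, Clec10a, Cd209a, Clec4b1, Clec4a2, Clec4a1 and Clec12a), chosen by name, and 9 of them had a row in the table of 28692 genes. Clec7a was not analysed here. The cells came from the colon lamina propria of 4 male C57/Bl6N mice and had been sorted for CD11b together with Ly6C or CD64, a gate for monocytes and macrophages. Mice DEP 11 and DEP 13 had been gavaged with 12 µg of diesel exhaust particles (DEP) in 200 µL of phosphate-buffered saline (PBS), and mice PBS 2 and PBS 3 with PBS alone, on 5 days a week for about 6 months. The labels name no altered allele, and no age was found in the sources read. Each mouse was 1 library, so the mouse was the replicate (n = 2 per group).

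C-type lectin receptors are membrane proteins that recognize carbohydrates, lipids and remnants of damaged cells through a shared lectin-like fold. Activating members such as Mincle (Clec4e), MCL (Clec4d), Dectin-2 (Clec4n) and DCAR (Clec4b1) reach the kinase Syk and the adaptor Card9 through the ITAM-bearing Fc receptor gamma chain (Fcer1g), and this leads to NF-κB activity and cytokine production. Inhibitory members such as DCIR (Clec4a2) and MICL (Clec12a) recruit the phosphatases Ptpn6 and Ptpn11, Clec4a1 is a relative of DCIR, and Clec10a (MGL1) and Cd209a (a mouse homologue of DC-SIGN) take up glycans. In the gut wall such receptors are known from monocytes, macrophages and dendritic cells in contact with fungi and bacteria.

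Of the 9 genes, 6 lay in a block of 8 genes on mouse chromosome 6, together with Clec4a3 and Clec4b2. This block spanned 368.023 kb from Clec4a1 (chr6:122921848-122934619, mm10, GENCODE M21) over Clec4b1 (chr6:123049962-123071555), Clec4a2 (chr6:123106428-123143999) and Clec4n (chr6:123229843-123247021) to Clec4d (chr6:123262111-123275265) and Clec4e (chr6:123281789-123289870). Clec4d and Clec4e, whose proteins are known to pair, were separated by 6.523 kb, and Clec4e was read from the minus strand while the other 5 were read from the plus strand. Clec12a lay farther along the same chromosome (chr6:129342691-129365303), Clec10a on chromosome 11 (chr11:70156197-70170834) and Cd209a on chromosome 8 (chr8:3743397-3748984, minus strand). All 9 were annotated as protein-coding.

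RefSeq (GRCm38.p6) gave the 250 bases before the transcription start for 7 of the 9 genes. Shown are the 4 genes that were lower in Ly6c2- C1qa-high than in Ly6c2+ C1qa-low barcodes (Clec4e, Clec4d, Clec12a and Cd209a) and the pair with the most similar pattern across mice and classes (Clec4b1 and Clec4a2). Capitals mark letters of 2 factors known from myeloid promoters, searched on both strands: GAGGAA for PU.1 and TTNNGNAA for C/EBP. The windows are chr6:123289872-123290121 (minus strand) for Clec4e, chr6:123261857-123262106 for Clec4d, chr6:129349994-129350243 for Clec12a, chr8:3748985-3749234 (minus strand) for Cd209a, chr6:123049712-123049961 for Clec4b1 and chr6:123122440-123122689 for Clec4a2, on the plus strand where none is given. The RefSeq starts used for Clec12a and Clec4a2 lie inside the longer GENCODE genes.
Clec4e: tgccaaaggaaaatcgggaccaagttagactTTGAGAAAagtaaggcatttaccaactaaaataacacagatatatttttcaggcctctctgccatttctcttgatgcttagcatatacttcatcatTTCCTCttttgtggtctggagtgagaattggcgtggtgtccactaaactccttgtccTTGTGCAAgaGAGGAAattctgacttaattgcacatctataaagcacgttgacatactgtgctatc
Clec4d: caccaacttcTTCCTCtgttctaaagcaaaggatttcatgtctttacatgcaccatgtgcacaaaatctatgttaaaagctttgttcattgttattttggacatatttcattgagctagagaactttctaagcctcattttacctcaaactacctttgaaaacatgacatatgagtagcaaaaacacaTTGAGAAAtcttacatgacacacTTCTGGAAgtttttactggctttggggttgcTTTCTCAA
Clec12a: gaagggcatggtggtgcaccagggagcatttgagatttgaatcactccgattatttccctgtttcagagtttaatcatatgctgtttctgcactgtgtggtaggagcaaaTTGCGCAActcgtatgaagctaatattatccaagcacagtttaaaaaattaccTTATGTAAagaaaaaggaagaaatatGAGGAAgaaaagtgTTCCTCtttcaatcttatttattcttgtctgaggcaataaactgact
Cd209a: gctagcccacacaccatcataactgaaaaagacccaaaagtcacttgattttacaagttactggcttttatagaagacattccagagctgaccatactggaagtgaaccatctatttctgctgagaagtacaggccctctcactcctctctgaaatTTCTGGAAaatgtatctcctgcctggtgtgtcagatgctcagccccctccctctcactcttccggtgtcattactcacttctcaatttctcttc
Clec4b1: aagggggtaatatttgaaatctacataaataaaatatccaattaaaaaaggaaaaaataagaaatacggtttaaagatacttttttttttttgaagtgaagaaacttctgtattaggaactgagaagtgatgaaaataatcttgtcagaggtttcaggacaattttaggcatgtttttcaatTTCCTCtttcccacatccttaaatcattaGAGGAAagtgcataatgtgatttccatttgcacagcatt
Clec4a2: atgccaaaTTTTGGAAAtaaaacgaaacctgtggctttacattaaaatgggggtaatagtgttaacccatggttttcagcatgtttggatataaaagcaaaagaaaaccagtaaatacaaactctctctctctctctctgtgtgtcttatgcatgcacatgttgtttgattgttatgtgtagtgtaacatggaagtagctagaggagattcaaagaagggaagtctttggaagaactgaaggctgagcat

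The PU.1 letters were found in 5 of the 7 windows, against 23.3% of 32851 RefSeq promoter windows of the same length, and the C/EBP letters in 5 of 7, against 36.8%. The Clec4e and Clec12a windows each held 2 matches of both motifs, Clec4d held 1 PU.1 match and 3 C/EBP matches, and Cd209a held no PU.1 match and 1 C/EBP match, so the 4 lower genes were not alike in these letters. Clec4b1 held 2 PU.1 matches and no C/EBP match, and Clec4a2 held 2 overlapping C/EBP matches and no PU.1 match, so the pair with the most similar pattern shared neither set of letters in these windows. Clec4a1 (2 PU.1 matches) is not shown. A match describes letters and is no evidence of a bound site.

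The table held 6954 barcodes, of which 4771 had at least 1000 unique molecular identifiers (UMIs, 1 per captured molecule) and were kept (675 to 1582 per mouse, median 5329 to 7116 UMIs). The kept barcodes held 97.3% of all UMIs. Values are UMIs of the gene per 1000000 UMIs (CPM) summed over the barcodes of a mouse; they are not scaled by length, so levels were compared within a gene and not between genes. Such a sum cannot tell fewer positive barcodes from less RNA in each. In 157 of the 4771 barcodes (22 to 62 per mouse), UMIs of T, B and plasma cell markers together outnumbered those of myeloid markers; these are called lymphoid-led. Across libraries, 36 barcode sequences occurred in more than 1 mouse.

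To set the receptor genes against monocyte and macrophage identity, each kept barcode was thinned to 1000 UMIs and classed by Ly6c2 (a monocyte surface antigen, positive from 1 UMI) and C1qa (a complement gene of mature gut macrophages, high from 2 UMIs). This gave 422 Ly6c2+ C1qa-low, 277 Ly6c2+ C1qa-high, 2845 Ly6c2- C1qa-high and 1227 Ly6c2- C1qa-low barcodes. The classes are ranges and not cell types: 868 barcodes held 1 thinned C1qa UMI and 586 held 2, and 505 of the Ly6c2+ barcodes rested on a single thinned Ly6c2 UMI. Genes not used for the classes followed them. Plac8, a monocyte gene, was at 3679 CPM in Ly6c2+ C1qa-low, 1409 in Ly6c2+ C1qa-high, 472 in Ly6c2- C1qa-high and 1955 in Ly6c2- C1qa-low barcodes, and the macrophage gene C1qb at 1175, 4362, 6188 and 1904 CPM in that order. The fourth class was therefore mixed in these markers. Among markers of other cell types, the mast cell and basophil genes (Mcpt4, Cpa3, Cma1, Gata2 and Mcpt8) and the neutrophil gene S100a9 were at 0 UMIs in all kept barcodes. The other 6 neutrophil markers were at 2 (Cxcr2 and Retnlg) to 1038 UMIs (Csf3r), with S100a8 at 11 and Mmp8 at 209. The 7 dendritic cell markers were at 12 (Zbtb46), 16 (Xcr1), 21 (Itgae), 113 (Flt3), 186 (Ccr7), 284 (Dpp4) and 3261 UMIs (Batf3).

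From Ly6c2+ C1qa-low to Ly6c2- C1qa-high barcodes the receptor set divided. Clec4e, Clec4d, Clec12a and Cd209a were lower and Clec4n, Clec4b1 and Clec4a2 were higher at the macrophage end, while Clec4a1 and Clec10a did not pass the test. The 4 lower and 3 higher genes among 9 stand beside a background of 15.9% of 6607 tested genes called lower and 13.5% called higher (edgeR quasi-likelihood test on mouse sums with the mouse as a block, adjusted p under 5%). Each of the 7 also passed with lymphoid-led barcodes left out, but the Cd209a call was lost without PBS 3 (-0.33, adjusted p = 0.571), by DESeq2 (adjusted p = 0.0628), without the mouse block (adjusted p = 0.0569) and with C1qa-high set at 1 UMI (adjusted p = 0.0876). The lymphoid-led barcodes held 11.5% of the UMIs of the Ly6c2+ C1qa-low class, from 0.0% in PBS 2 and 2.80% in DEP 11 to 18.6% in PBS 3 and 33.6% in DEP 13, and 2.55% of those of the Ly6c2- C1qa-high class.

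Clec4e, the glycolipid receptor Mincle, showed the steepest fall among the 9 genes. In Ly6c2+ C1qa-low barcodes the DEP mice stood at 139 (DEP 11) and 172 CPM (DEP 13) and the PBS mice at 197 (PBS 2) and 130 CPM (PBS 3) (mean 159 ± 31.0 SD, n = 4). In Ly6c2- C1qa-high barcodes it stood at 27.7, 29.2, 54.1 and 37.0 CPM in the same mice (37.0 ± 12.1). Every mouse was lower in the second class and the ranges did not overlap, a 4.25-fold difference (log2 -2.09 ± 0.13 SE, adjusted p = 4.46e-12). Ly6c2- C1qa-low (117 ± 43.8 CPM) and Ly6c2+ C1qa-high barcodes (58.8 ± 19.8 CPM) lay between. PBS 2 was the highest mouse in all 4 classes, except that without lymphoid-led barcodes DEP 13 (254 CPM) lay above it (197 CPM) in Ly6c2+ C1qa-low barcodes.

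Clec4d encodes MCL, the partner of Mincle, and was sparsely captured, with 571 UMIs in all kept barcodes. Ly6c2+ C1qa-low barcodes held 19, 4, 19 and 30 Clec4d UMIs (33.0, 12.7, 31.2 and 42.7 CPM) in DEP 11, DEP 13, PBS 2 and PBS 3. Ly6c2- C1qa-high barcodes were at 12.5, 17.3, 17.0 and 14.4 CPM. The fall was 2.19-fold (log2 -1.13 ± 0.22 SE, adjusted p = 3.04e-04) and was seen in 3 of 4 mice, the exception being DEP 13 with its 4 UMIs.

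Clec4n, the mannan receptor Dectin-2, ran the other way. Its levels in Ly6c2+ C1qa-low barcodes were 90.2, 66.8, 154 and 140 CPM in DEP 11, DEP 13, PBS 2 and PBS 3 (113 ± 41.1), and 439, 565, 437 and 475 CPM in Ly6c2- C1qa-high barcodes (479 ± 59.7). The lowest macrophage-end value was over every monocyte-end value, and the rise was 3.97-fold (log2 1.99 ± 0.13 SE, adjusted p = 5.84e-12). Ly6c2- C1qa-low barcodes averaged 207 ± 43.3 CPM and Ly6c2+ C1qa-high barcodes 341 ± 53.6 CPM, so the order of the classes was that of Clec4e turned round.

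Clec4b1 and Clec4a2, an activating and an inhibitory receptor that are neighbours in the block, rose together by smaller amounts. Clec4b1 moved from 165, 85.9, 161 and 187 CPM (DEP 11, DEP 13, PBS 2 and PBS 3) to 246, 267, 255 and 302 CPM, a rise of 1.71-fold (log2 0.77 ± 0.12 SE, adjusted p = 9.09e-06). Clec4a2 moved from 323, 165, 325 and 350 CPM to 418, 434, 406 and 479 CPM, a rise of 1.44-fold (log2 0.53 ± 0.10 SE, adjusted p = 2.01e-04). The ranges of the 2 classes did not overlap for either gene, though without lymphoid-led barcodes those of Clec4a2 did (up to 412 and from 405 CPM), and in both DEP 13 was the lowest mouse at the monocyte end. These receptors have close relatives in the same block, and the sources used here do not say how reads of near-identical copies were divided. Clec4a1 was level by comparison, at 216 to 273 CPM in Ly6c2+ C1qa-low and 242 to 301 CPM in Ly6c2- C1qa-high barcodes (log2 0.12 ± 0.08 SE, adjusted p = 0.320).

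Clec12a, an inhibitory receptor that senses crystals of uric acid, fell from 267, 165, 232 and 214 CPM in DEP 11, DEP 13, PBS 2 and PBS 3 to 93.1, 87.9, 102 and 109 CPM. The 2 ranges were separate, and the fall was 2.29-fold (log2 -1.20 ± 0.10 SE, adjusted p = 5.69e-10). Its other classes were intermediate, at 170 ± 24.3 CPM in Ly6c2- C1qa-low and 137 ± 31.7 CPM in Ly6c2+ C1qa-high barcodes.

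**Figure D1:**
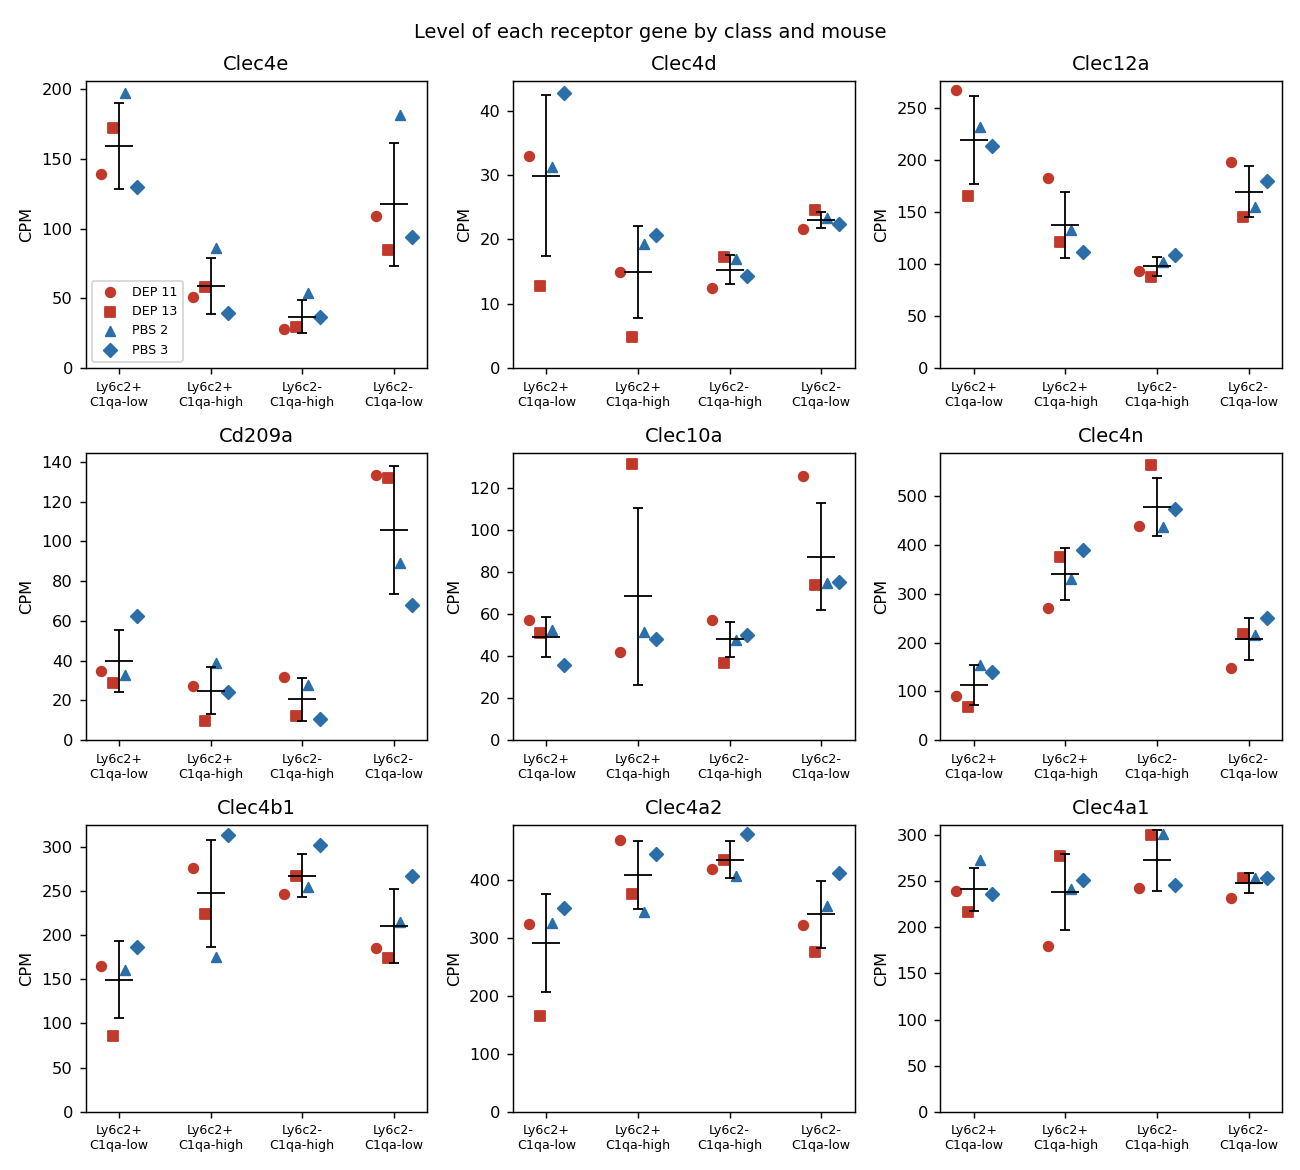
Level of each of the 9 receptor genes (CPM, linear axis from 0) in the 4 classes set by Ly6c2 and C1qa; points are the 4 mice, coloured by exposure, and black bars give the mean and SD. Clec4e and Clec12a were highest and Clec4n lowest in Ly6c2+ C1qa-low barcodes, and Cd209a was highest in Ly6c2- C1qa-low barcodes in every mouse.

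Cd209a had its peak outside both ends, in Ly6c2- C1qa-low barcodes. There the mice DEP 11, DEP 13, PBS 2 and PBS 3 were at 134, 132, 89.2 and 68.2 CPM (106 ± 32.4), against 34.7, 28.6, 32.9 and 62.7 CPM in Ly6c2+ C1qa-low and 31.9, 12.2, 27.8 and 10.4 CPM in Ly6c2- C1qa-high barcodes. Each of the 4 mice was highest in this class, and the comparisons with it were added after these levels had been seen. Against Ly6c2- C1qa-high barcodes the excess was 4.92-fold (log2 2.30 ± 0.21 SE, adjusted p = 4.56e-09), and against Ly6c2+ C1qa-low barcodes 2.38-fold (log2 1.25 ± 0.30 SE, adjusted p = 0.0136). The second of these did not pass without DEP 11 (0.98, adjusted p = 0.173), without PBS 2 (1.17, adjusted p = 0.0679) by DESeq2 (1.33, adjusted p = 0.0584), without the mouse block (1.30, adjusted p = 0.0768) or with C1qa-high set at 4 UMIs (0.65, adjusted p = 0.109), and it was 1.87 (adjusted p = 4.48e-04) without PBS 3. This class held 92 of the 157 lymphoid-led barcodes, which took 13.4% of its UMIs (7.45% to 21.1% per mouse), and T cell markers summed to 104 CPM in it against 21.6 CPM in Ly6c2- C1qa-high barcodes. Without lymphoid-led barcodes the 2 Cd209a differences were 2.34 (adjusted p = 1.17e-12) and 1.29 (adjusted p = 0.00165). The fall from Ly6c2+ C1qa-low to Ly6c2- C1qa-high barcodes (log2 -1.04 ± 0.35 SE, adjusted p = 0.0265) rested on PBS 3, without which it was -0.33 (adjusted p = 0.571).

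Clec10a shared the peak of Cd209a. It was at 126, 73.6, 74.8 and 75.1 CPM in Ly6c2- C1qa-low barcodes of DEP 11, DEP 13, PBS 2 and PBS 3, at 57.3, 50.9, 52.6 and 35.6 CPM in Ly6c2+ C1qa-low and at 57.1, 36.7, 47.5 and 50.0 CPM in Ly6c2- C1qa-high barcodes. All 4 values of the first class lay above those of the other 2. In the same later added comparisons its excess was 1.79-fold over Ly6c2- C1qa-high barcodes (log2 0.84 ± 0.14 SE, adjusted p = 5.23e-05) and 1.78-fold over Ly6c2+ C1qa-low barcodes (log2 0.84 ± 0.22 SE, adjusted p = 0.0253). The first value did not pass with each barcode thinned to 1000 UMIs before summing (0.29, adjusted p = 0.398). The second did not pass without DEP 11 (0.68, adjusted p = 0.188), PBS 2 (0.93, adjusted p = 0.0805) or PBS 3 (0.79, adjusted p = 0.118), with C1qa-high set at 4 UMIs (0.31, adjusted p = 0.334) or with thinned sums (0.45, adjusted p = 0.687). Without lymphoid-led barcodes the Clec10a differences were 0.84 (adjusted p = 3.41e-06) and 0.88 (adjusted p = 0.00751). In Ly6c2+ C1qa-high barcodes DEP 13 stood apart at 131 CPM from 27 UMIs in 28 barcodes, against 42.1 to 51.4 CPM in the other mice. The 7 dendritic cell markers summed to 172, 114, 124 and 147 CPM in Ly6c2- C1qa-low barcodes to 121, 90.0, 120 and 129 CPM in Ly6c2- C1qa-high and to 95.5, 85.9, 135 and 124 CPM in Ly6c2+ C1qa-low barcodes. The first class was higher than the second in each mouse and than the third in 3 of 4, the exception being PBS 2. Batf3 made up most of the sums, at 106, 103 and 96.3 CPM over all mice; the part of these markers in the Cd209a and Clec10a values was not tested.

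Both comparisons with the Ly6c2- C1qa-low class were added after the levels of the genes had been seen. Against Ly6c2- C1qa-high barcodes, 5 of 9 genes were higher (Cd209a, Clec4e, Clec10a, Clec12a and Clec4d) and 3 lower (Clec4n, Clec4a2 and Clec4b1), beside 14.7% and 14.0% of 6607 genes. Clec4e differed by log2 1.65 ± 0.11 SE (adjusted p = 1.97e-11) and Clec4n by -1.21 ± 0.10 (adjusted p = 1.73e-09). Clec4d (0.60 ± 0.17, adjusted p = 0.00852) did not pass without DEP 11 (0.54, adjusted p = 0.0605) or with C1qa-high set at 1 UMI (0.58, adjusted p = 0.0721). Clec4b1 did not pass with C1qa-high set at 4 UMIs (-0.21, adjusted p = 0.0618) and, like Clec4a2, without the mouse block (-0.33 and -0.34, adjusted p = 0.260 and 0.170).

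Against Ly6c2+ C1qa-low barcodes, 4 of 9 genes were higher (Cd209a, Clec10a, Clec4n and Clec4b1) and 2 lower (Clec4e and Clec12a), beside 1.98% and 3.04% of 6607 genes. These calls depended on the class limits and on other settings, as did the calls over all genes. With C1qa-high set at 1 UMI 0 of the 9 genes passed, beside 113 of 6607 genes, and at 4 UMIs 4 passed, beside 638. With classes set after thinning to 2000 UMIs 3 passed, beside 151 of 6770 genes, and without the mouse block 1, beside 96 of 6607. With thinned sums 1 of the 7 genes then tested passed, beside 97 of 1982 genes. Clec4n (log2 0.78 ± 0.14 SE, adjusted p = 6.33e-04) passed with each mouse left out in turn, but not with C1qa-high set at 1 UMI (0.56, adjusted p = 0.105) or classes set after thinning to 2000 UMIs (0.46, adjusted p = 0.118). Clec4b1 (0.43 ± 0.12, adjusted p = 0.0368) lost the call without any one of the 4 mice (0.37 to 0.51, adjusted p from 0.0514 to 0.170). Clec4e (-0.43 ± 0.13, adjusted p = 0.0483) lost it without DEP 11, DEP 13 or PBS 3 (-0.47 to -0.30, adjusted p from 0.102 to 0.219) and without lymphoid-led barcodes (-0.42, adjusted p = 0.0532), and Clec12a (-0.40 ± 0.10, adjusted p = 0.0192) without PBS 2 (-0.36, adjusted p = 0.159) or PBS 3 (-0.43, adjusted p = 0.0585).

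In the 277 barcodes with both Ly6c2 and a high C1qa level, Clec4e was already lower and Clec4n already higher than in barcodes with Ly6c2 alone. Compared with Ly6c2+ C1qa-low barcodes, 3 of 9 genes were higher and 2 lower, beside 5.42% and 5.95% of 6607 genes. Clec4n rose by log2 1.53 ± 0.14 SE (adjusted p = 2.27e-08), Clec4b1 by 0.65 ± 0.13 (adjusted p = 0.00144) and Clec4a2 by 0.45 ± 0.11 (adjusted p = 0.00755). The Clec4a2 call was lost without DEP 11 (0.41, adjusted p = 0.0582), with C1qa-high set at 1 UMI (0.38, adjusted p = 0.105) and without the mouse block (0.47, adjusted p = 0.123). The Clec4b1 call was lost with C1qa-high set at 1 UMI (0.56, adjusted p = 0.0551) and with thinned sums (0.497, adjusted p = 0.276). Clec4e fell by 1.42 ± 0.18 (adjusted p = 2.20e-06) and Clec12a by 0.71 ± 0.12 (adjusted p = 2.30e-04) on the log2 scale, and Clec4e did not pass with thinned sums (-0.996, adjusted p = 0.0579). The Clec4d value was -0.92 ± 0.32 (adjusted p = 0.0639), which passed without DEP 13 (adjusted p = 0.0433), without lymphoid-led barcodes (-0.96, adjusted p = 0.0423), with C1qa-high set at 4 UMIs (-2.43, adjusted p = 0.00200) and with classes set after thinning to 2000 UMIs (-1.44, adjusted p = 7.61e-04). Cd209a, at -0.52 ± 0.47 (adjusted p = 0.588), passed under the last 2 settings (-4.51 and -1.34, adjusted p = 0.00151 and 0.0148).

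Between Ly6c2- C1qa-high and Ly6c2+ C1qa-high barcodes fewer of the receptor genes differed. Of the 9 genes, 1 was higher and 2 were lower, beside 1.21% and 2.33% of 6607 genes: Clec4n at log2 0.46 ± 0.11 SE (adjusted p = 0.0212), Clec4e at -0.66 ± 0.18 (adjusted p = 0.0386) and Clec12a at -0.49 ± 0.12 (adjusted p = 0.0153). All 3 lost the call without DEP 11 (0.38, -0.61 and -0.32, adjusted p = 0.132, 0.129 and 0.178) and without PBS 2 (0.48, -0.61 and -0.52, adjusted p = 0.0769, 0.289 and 0.0802). Clec4e also lost it without DEP 13 (-0.61, adjusted p = 0.0595). They also lost it with C1qa-high set at 4 UMIs (0.19, -0.02 and -0.24) and without the mouse block.

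**Figure D2:**
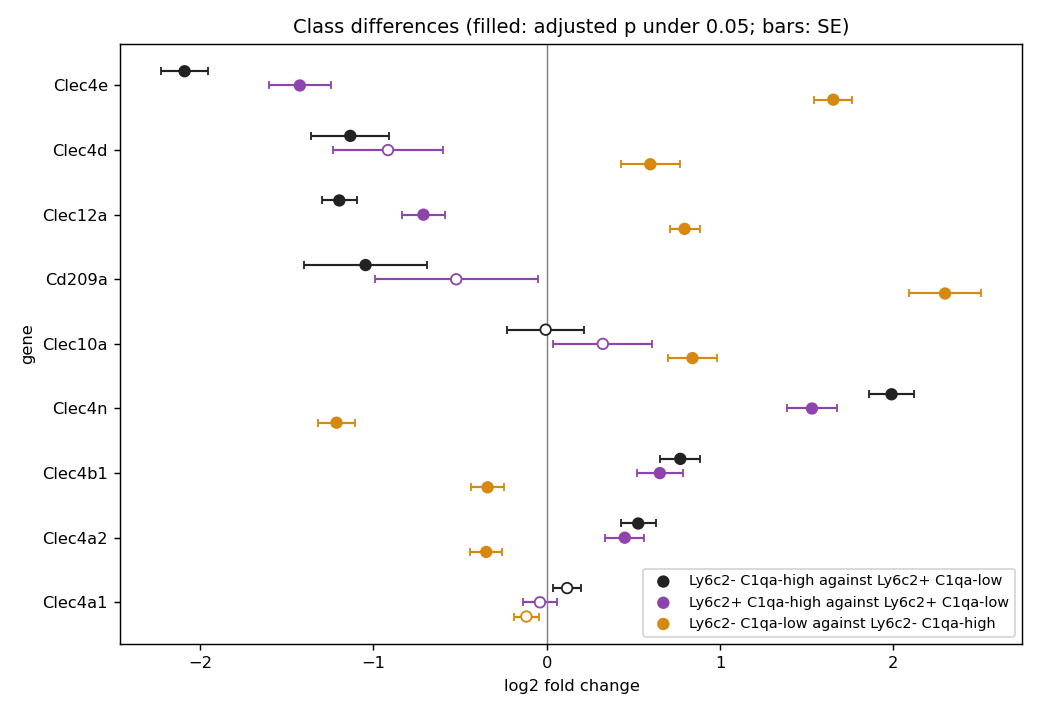
Log2 fold change (x axis, points with bars of 1 SE) of each receptor gene in 3 of the class comparisons, with filled points where the adjusted p was under 0.05. Clec4n lay far to the right and Clec4e far to the left for Ly6c2- C1qa-high against Ly6c2+ C1qa-low barcodes (1.99 and -2.09), and Clec4a1 stayed near 0 throughout.

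Along 6 steps of the thinned C1qa level, with no Ly6c2 rule, the same opposition was graded. Mean Clec4e levels of the 4 mice were 125 CPM at 0 UMIs of C1qa, 131 at 1, 79.6 at 2 to 3, 32.6 at 4 to 5, 23.3 at 6 to 7 and 14.5 CPM at 8 or more. Clec4n went from 163 over 203, 328, 436 and 567 to 577 CPM over the same steps. Both curves were flat at one end, Clec4e between the first 2 steps (SD 42.7 and 38.8) and Clec4n between the last 2 (SD 105 and 84.1).

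Of the other genes, Clec12a fell from 194 to 74.1 CPM, Cd209a from 109 to 7.33, Clec10a from 78.3 to 37.7 and Clec4d from 28.4 to 12.7 CPM between the first and the last step. Clec4b1 (186 to 258 CPM) and Clec4a2 (321 to 445 CPM) had reached 257 and 398 CPM by 2 to 3 UMIs. Clec4a1 stayed between 243 and 286 CPM. The step of no C1qa UMI held 781 barcodes and that of 8 or more held 681. By Ly6c2, Clec4e stood at 56.0 CPM in barcodes with no thinned UMI, 99.8 with 1, 140 with 2 and 159 CPM with 3 or more, and Clec4n at 410, 250, 125 and 83.8 CPM; the last 2 steps held 108 and 86 barcodes, down to 6 in 1 mouse. These are descriptions over classes that share libraries and were not tested.

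**Figure D3:**
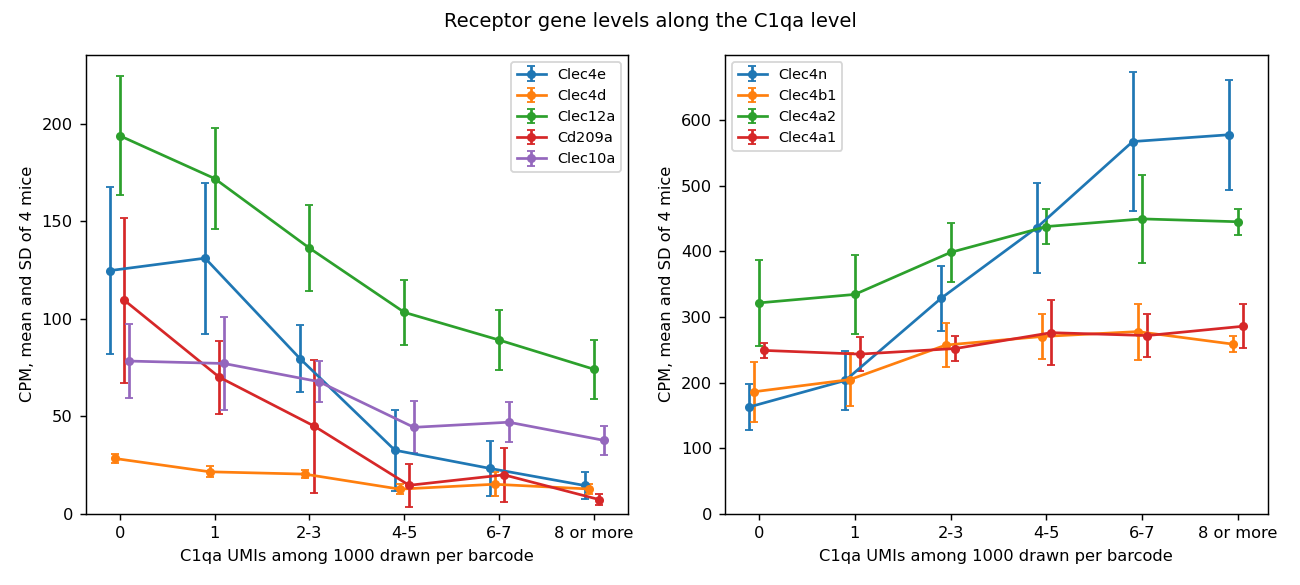
Mean level of the receptor genes (CPM, linear axis from 0; bars are SD of 4 mice) against the number of C1qa UMIs among 1000 drawn per barcode. Clec4e declined from 125 to 14.5 CPM and Clec4n climbed from 163 to 577 CPM, while Clec4a1 remained between 243 and 286 CPM.

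Whether 2 receptors were found in the same barcodes was described by the level of one gene, over all UMIs, in barcodes with and without a UMI of the other among 1000 drawn. Barcodes with a thinned Clec10a UMI (239) held more Cd209a than the rest in all 4 mice, with a median ratio of 5.04 (3.99 to 12.4), and barcodes with a thinned Cd209a UMI (102) held 4.21 times the Clec10a level (3.29 to 5.98). Clec4e-marked barcodes (292) held 2.68 times the Clec4d level (2.09 to 3.18), and Clec4d-marked barcodes, only 81 in all, 2.70 times the Clec4e level (1.18 to 4.01). The neighbours Clec4b1 and Clec4a2 were enriched in each other's barcodes by 1.77 (1.69 to 2.09) and 1.82 (1.63 to 2.29). Clec4n was lower in Clec4e-marked barcodes in each mouse (ratio 0.62, 0.44 to 0.73), although both use Fcer1g. Depth and class are shared by the genes of a barcode, so the ratios carry no test. Without lymphoid-led barcodes they were 5.23, 4.10, 2.62, 2.31, 1.71, 1.72 and 0.62 in the same order.

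**Figure D4:**
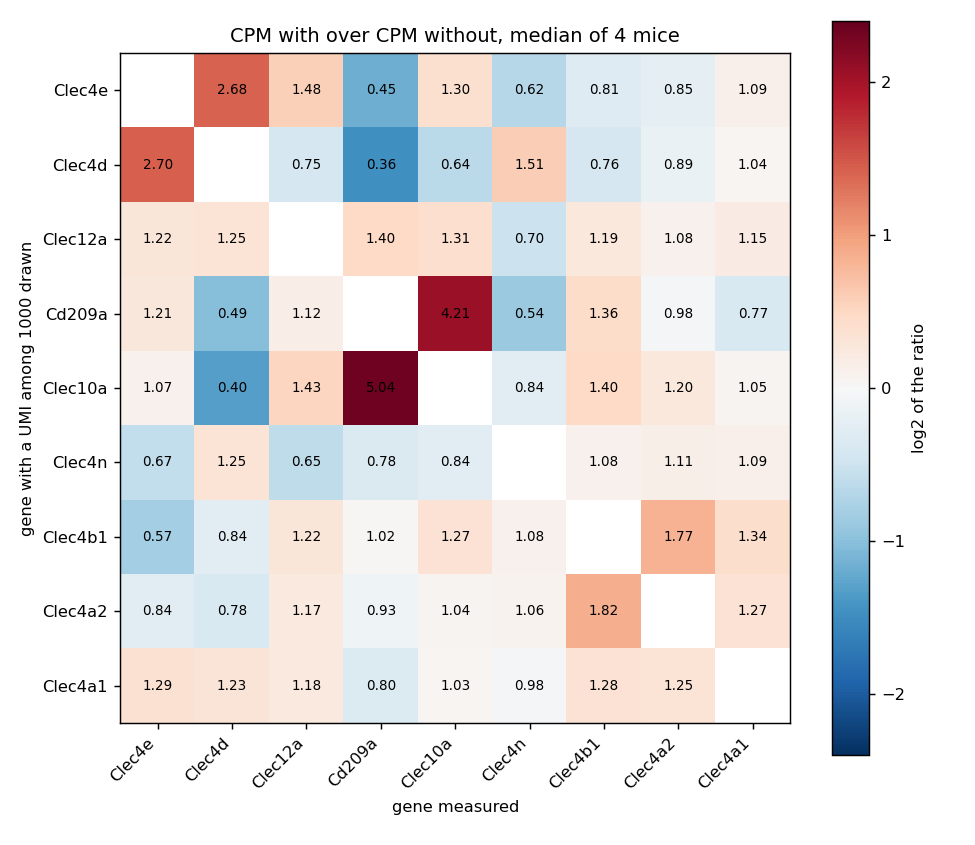
Ratio of the level of each measured gene (columns) in barcodes with a thinned UMI of the marking gene (rows) to its level in the remaining barcodes, median of 4 mice. The Clec10a and Cd209a pair (5.04 and 4.21), the Clec4e and Clec4d pair (2.68 and 2.70) and the Clec4b1 and Clec4a2 pair (1.77 and 1.82) stood out above 1.

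Across the 16 mouse-by-class sums, the genes closest in pattern to Clec4n were Dab2, Pmepa1 and Serpinf1 (Pearson r of 0.98, 0.97 and 0.97 on log2(CPM + 1)). For Clec4e these were Hist1h2al, Nr4a1 and Gm1673 (each 0.95), for Clec12a Eno1, Gpx1 and Rpl13 (0.96, 0.95 and 0.94), and for Clec4d Itgal, Dazap2 and Sh3kbp1 (0.93, 0.93 and 0.90). Clec4b1 and Clec4a2 were each other's closest gene among all tested (r = 0.96). The nearest after that were Atpif1 and Bola3 for Clec4b1 (0.94 and 0.93) and Bola3 and Arl6ip1 for Clec4a2 (0.95 and 0.94). Cd209a (Raph1, Pvr and Rexo2, 0.80, 0.80 and 0.79), Clec10a (Parp8, Polr2c and Fbh1, 0.85, 0.79 and 0.79) and Clec4a1 (Gsk3b, Tial1 and Fpr2, 0.84, 0.82 and 0.82) had no gene as close. The 16 sums share 4 libraries and were few for so many genes, so the values are descriptive.

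Of 23 listed adaptor and signalling genes 20 were tested, and 3 were higher and 5 lower in Ly6c2- C1qa-high than in Ly6c2+ C1qa-low barcodes, beside 13.5% and 15.9% of all genes and near those shares, with a median log2 difference of -0.16 beside 0.01 over all genes. Lower were the adaptors Card9 (-1.02 ± 0.33 SE) and Tyrobp (-0.38 ± 0.05), the phosphatase Ptpn6 (-0.37 ± 0.07), the phospholipase Plcg2 (-0.81 ± 0.15) and the kinase Prkcd (-0.50 ± 0.09). Higher were the lipid phosphatase Inpp5d (0.48 ± 0.13), the transcription factor Nfatc2 (1.36 ± 0.44) and Fcer1g itself, by only 0.13 ± 0.05 (adjusted p = 0.0494). Tyrobp, Ptpn6 and Prkcd were also lower, and no listed gene higher, in Ly6c2+ C1qa-high against Ly6c2+ C1qa-low barcodes (-0.25, -0.25 and -0.35). Between Ly6c2- C1qa-high and Ly6c2+ C1qa-high barcodes no listed gene passed (Plcg2 -0.47 ± 0.17 and Inpp5d 0.43 ± 0.13 were the largest), and in Ly6c2- C1qa-low against Ly6c2+ C1qa-low barcodes Tyrobp alone did (-0.28 ± 0.05). In Ly6c2- C1qa-low against Ly6c2- C1qa-high barcodes 4 were higher, among them Ptpn6, Plcg2 and Prkcd (0.22, 0.49 and 0.43), and 2 lower (Inpp5d -0.42 and Fcer1g -0.22), beside 14.7% and 14.0% of all genes.

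Among 30 other C-type lectin receptor genes 11 were tested, and 5 were higher and 2 lower in Ly6c2- C1qa-high than in Ly6c2+ C1qa-low barcodes (median 0.30 beside 0.01 over all genes), beside 13.5% and 15.9% of all genes; the count of lower ones was near that share. The mannose receptor Mrc1 rose by log2 2.05 ± 0.18 SE, Klrb1b by 2.64 ± 0.22, the galactose-type lectin Mgl2 by 1.71 ± 0.13, Clec5a by 0.92 ± 0.18 and Cd93 by 0.80 ± 0.13. Clec2i fell by 1.21 ± 0.16 and Clec4a3, a member of the chromosome 6 block, by 0.31 ± 0.08. Mgl2, the paralogue of Clec10a, thus rose where Clec10a did not pass the test (log2 -0.01 ± 0.22). In Ly6c2+ C1qa-high against Ly6c2+ C1qa-low barcodes Klrb1b, Mrc1 (1.72), Mgl2 (1.22), Clec5a (0.75) and Cd93 (0.65) were also higher and Clec2i lower (-0.88). Mgl2 alone rose further in Ly6c2- C1qa-high barcodes (0.49 ± 0.11). Ly6c2- C1qa-low barcodes had more Mrc1, Klrb1b and Mgl2 than Ly6c2+ C1qa-low barcodes (0.95, 1.19 and 1.23). Against Ly6c2- C1qa-high barcodes they had more Clec4a3, Clec2i and Klrk1 (0.22, 0.83 and 0.67) and less Mrc1, Cd93, Clec5a, Klrb1b and Mgl2 (-0.48 to -1.45).

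Of 21 response genes known to be induced through these receptors, mostly cytokines and chemokines, 14 were tested in the class fit. In Ly6c2- C1qa-high against Ly6c2+ C1qa-low barcodes 4 were higher and 1 lower, beside 13.5% and 15.9% of all genes. The neutrophil-attracting chemokines Cxcl1 (log2 2.72 ± 0.45 SE), Cxcl3 (1.26 ± 0.26) and Cxcl2 (1.17 ± 0.16) and the chemokine Ccl4 (0.59 ± 0.12) were higher in Ly6c2- C1qa-high than in Ly6c2+ C1qa-low barcodes and Il18 was lower (-0.71 ± 0.15), with a median of 0.15 beside 0.01. None passed between Ly6c2+ C1qa-high and Ly6c2+ C1qa-low barcodes (Cxcl1 1.86 ± 0.62 and Il10 0.72 ± 0.43 were the largest), and Cxcl2 alone did in the further step (0.68 ± 0.16). In Ly6c2- C1qa-low against Ly6c2+ C1qa-low barcodes Il1b was higher (0.40 ± 0.10) and Ccl3 lower (-0.36 ± 0.07). Against Ly6c2- C1qa-high barcodes 3 were higher (the cyclooxygenase Ptgs2 0.42, the transcription factor Egr2 0.67 and the cytokine Il18 0.37) and 7 lower (Il10, Cxcl1, Cxcl2, Cxcl3, Ccl3, Ccl4 and Tnf, -0.23 to -1.86), beside 14.7% and 14.0% of all genes.

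DEP exposure was compared in all kept barcodes, in 3 of the classes and as an interaction. None of the 9 receptor genes passed the test in any of these. No gene at all did by edgeR, so the background was 0.0% of 6609 genes in all barcodes, 0.0% of 5649 in Ly6c2+ C1qa-low, 0.0% of 6916 in Ly6c2- C1qa-high, 0.0% of 5930 in Ly6c2- C1qa-low barcodes and 0.0% of 6803 for the interaction. At an unadjusted p under 0.05 edgeR gave 171, 169, 229, 179 and 303 genes, and DESeq2 called 4, 0, 6, 3 and 0 genes, none of them a receptor of the set. The comparison within Ly6c2- C1qa-low barcodes was added after the levels had been seen. All these comparisons use the same 4 mice.

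Over all kept barcodes, Clec4e was at 55.4 and 54.4 CPM in DEP 11 and DEP 13 and at 86.4 and 57.6 CPM in PBS 2 and PBS 3. Both DEP mice were below both PBS mice, but PBS 3 lay close to them, and the log2 difference was -0.38 ± 0.19 SE (unadjusted p = 0.0821, adjusted p = 0.997), or -0.12 without PBS 2 and -0.59 without PBS 3. Cd209a was at 54.3, 42.5, 39.2 and 28.9 CPM, higher in both DEP mice (0.52 ± 0.19, unadjusted p = 0.0237, adjusted p = 0.997). Without lymphoid-led barcodes, in which Cd209a was at 50.0 CPM against 39.4 in the remaining kept ones, its groups overlapped and the difference was 0.34 ± 0.19. For the other 7 genes it lay between -0.19 and 0.19.

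Levels of 3 genes were below in both DEP mice over all barcodes (Clec4e, Clec4d and Clec4b1), beside 12.8% of all genes, and of 1 above (Cd209a), beside 13.8%; without lymphoid-led barcodes, of these 4 the groups stayed apart for Clec4e alone. In Ly6c2+ C1qa-low barcodes 2 were below (Clec4n and Clec4a2) and 0 above, beside 15.3% and 11.2%; without lymphoid-led barcodes Clec4a2 overlapped and Clec10a lay above in both DEP mice. In Ly6c2- C1qa-high barcodes 2 were below (Clec4e and Clec12a) and 0 above, beside 13.9% and 15.5%. In Ly6c2- C1qa-low barcodes 2 were below (Clec4b1 and Clec4a2) and 1 above (Cd209a), beside 17.5% and 12.3%.

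The largest DEP difference of a receptor gene within the monocyte end was that of Clec4n. Its 4 values there, 90.2 and 66.8 CPM in the DEP mice and 154 and 140 CPM in the PBS mice, did not overlap (log2 -0.84 ± 0.27 SE, unadjusted p = 0.00550, adjusted p = 0.9998). At the macrophage end the DEP mice were at 439 and 565 CPM and the PBS mice at 437 and 475 CPM, which overlapped (0.14 ± 0.18, adjusted p = 0.999). The difference between these 2 DEP effects was -0.94 ± 0.20 (unadjusted p = 2.61e-04, adjusted p = 0.250) and failed the correction. Of 15 alternatives 3 passed, 2 of them with a mouse left out, which leaves 1 mouse in its group. With a mouse left out the value ranged from -1.35 (without DEP 11) to -0.70, and was -1.005 without PBS 3. It passed with no filter on low genes (-0.95, adjusted p = 0.00783), and with lymphoid-led barcodes left out it was -1.02 (adjusted p = 0.0729). The 2 DEP values at the monocyte end rested on 52 and 21 UMIs. Levels there (66.8 to 154 CPM) stood beside 141 CPM in lymphoid-led barcodes (109 to 216 CPM per mouse), and the thinned shares of Clec4n were 14.0% in these and 6.504%, 8.33%, 15.6% and 13.4% in Ly6c2+ C1qa-low barcodes of DEP 11, DEP 13, PBS 2 and PBS 3. Plasma cell markers summed in this class to 20396 and 162405 CPM in DEP 11 and DEP 13 and to 3235 and 80317 CPM in PBS 2 and PBS 3; without lymphoid-led barcodes the Clec4n difference was -0.97 ± 0.27.

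For Clec4e the macrophage end gave 27.7 and 29.2 CPM in the DEP mice below 54.1 and 37.0 CPM in the PBS mice (log2 -0.68 ± 0.21 SE, unadjusted p = 0.00862, adjusted p = 0.903). It did not pass, and was -0.43 without PBS 2 and -0.88 without PBS 3. The thinned shares there were 1.81%, 2.51%, 5.37% and 3.30% in DEP 11, DEP 13, PBS 2 and PBS 3 beside 3.18% in lymphoid-led barcodes, in which the level was 18.6 CPM. At the monocyte end its groups overlapped (-0.01 ± 0.27). The interaction was 0.60 ± 0.22 (unadjusted p = 0.0141, adjusted p = 0.972), so the DEP effect was not shown to differ between the classes. Cd209a in Ly6c2- C1qa-low barcodes was at 134 and 132 CPM in the DEP mice and 89.2 and 68.2 CPM in the PBS mice (0.81 ± 0.20, unadjusted p = 0.00154, adjusted p = 0.872). With a mouse left out, which leaves 1 mouse in its group, the difference was 0.68 to 0.95. Without lymphoid-led barcodes this difference was 0.63. The Cd209a interaction (-1.01 ± 0.62, adjusted p = 0.989) was -2.23 without PBS 2 and turned to 0.26 without PBS 3, each of which leaves 1 PBS mouse.

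**Figure D5:**
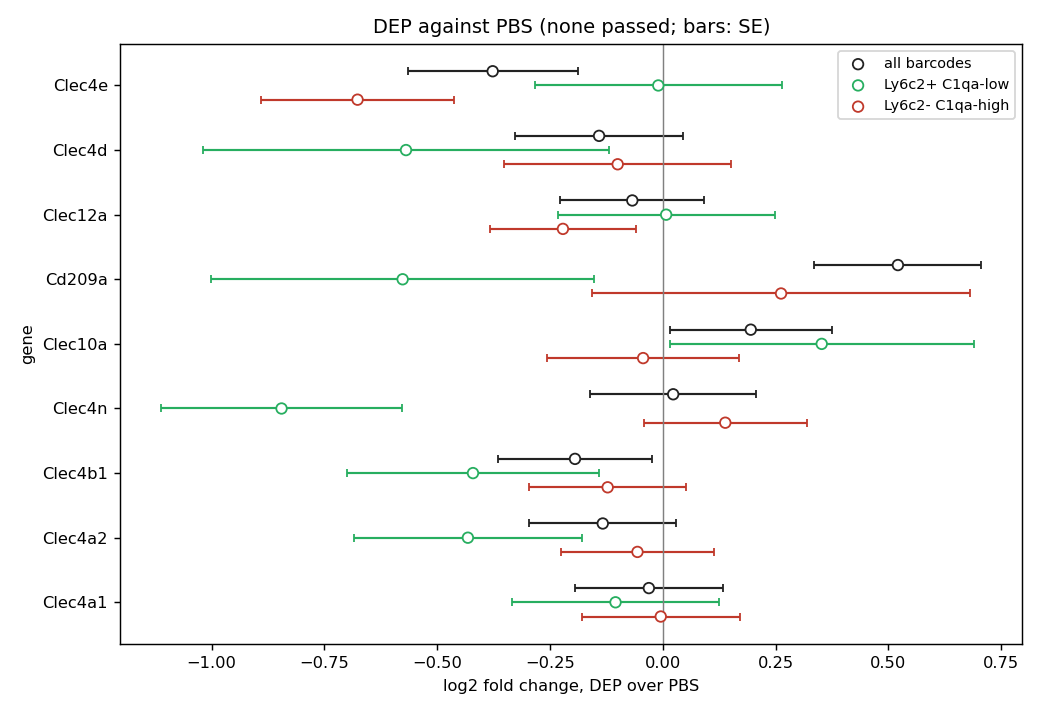
Log2 fold change of DEP against PBS (x axis, points with bars of 1 SE) for each receptor gene in all barcodes, Ly6c2+ C1qa-low and Ly6c2- C1qa-high barcodes. No adjusted p was under 0.05 and all points are open; Clec4n in Ly6c2+ C1qa-low (-0.84) and Clec4e in Ly6c2- C1qa-high barcodes (-0.68) lay farthest from 0.

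At equal depth, 4.35% and 5.33% of the barcodes of DEP 11 and DEP 13 and 9.26% and 5.25% of those of PBS 2 and PBS 3 held a Clec4e UMI among 1000 drawn (unthinned 15.7%, 16.1%, 28.9% and 18.6%). For Clec4n the thinned shares were 23.3%, 25.0%, 27.01% and 26.7% (unthinned 58.0%, 64.7%, 70.6% and 67.0%). The DEP mice were below the PBS mice for Clec4n by 2.70 percentage points and above them for Clec4d by 0.57 points, in both cases against the sign of the CPM difference over all barcodes (0.02 and -0.14), so no order was read from them. Differences of the other 7 genes ranged from -2.41 points (Clec4e) to 0.50 points (Cd209a) and their groups overlapped. Exact two-sided permutation tests over the 6 assignments of mice gave p of 0.333 or more, and 0.333 is the smallest value 2 against 2 mice allow.

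Lymphoid cells should lack these receptors, but the lymphoid-led barcodes also held myeloid RNA, with C1qa at 1397 CPM, and are no measured floor. In them thinned shares were 3.18% for Clec4e against 6.22% in the other kept barcodes, 14.0% against 26.1% for Clec4n, 11.5% against 31.5% for Clec4a2, 5.73% against 21.6% for Clec4b1, 9.55% against 23.0% for Clec4a1, 7.64% against 12.3% for Clec12a, 1.91% against 5.11% for Clec10a and 0.637% against 1.73% for Clec4d (median depth 6853 and 5838 UMIs). Cd209a was at 1.91% and 2.15%. For Cd209a and for Clec10a the lymphoid-led share stood for 3 of 157 barcodes, and the Cd209a level in these barcodes ran from 3.54 to 116 CPM per mouse, so at this depth its 2 shares could not be told apart. The Clec4d share rested on fewer barcodes still. Before thinning, the lymphoid-led barcodes held 6 Clec4d and 35 Clec4e UMIs, so these contrasts also rest on small counts.

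The 3 gene lists held no gene that passed in the DEP comparisons by edgeR. Over all barcodes their medians were 0.02 (adaptors and signalling), 0.06 (other receptors) and -0.18 (response genes) beside -0.01 over all genes, and the largest values were Nfatc2 -0.30 and Plcg2 0.28, Cd69 -0.64 and Klrk1 0.42, and Il10 -0.57 and Egr2 -0.53. In Ly6c2+ C1qa-low barcodes the response gene median was -0.36 beside -0.01, with Il10 at -1.51 and Il1rn, the interleukin-1 receptor antagonist, at -1.30 (unadjusted p = 9.67e-04). Ptpn11 (-0.75) and Card9 (0.69), and Clec2i (-0.57) and Mgl2 (0.48), led the other lists. In Ly6c2- C1qa-high barcodes the largest were Nfatc2 (-0.33) and Inpp5d (0.26), Cd69 (-0.92) and Klrk1 (0.70), and Egr2 (-0.62) and Ccl2 (-0.57). In Ly6c2- C1qa-low barcodes they were Malt1 (0.50) and Plcg2 (0.39), Clec5a (-0.49) and Clec2d (0.35), and Cxcl1 (-0.95 ± 0.46 SE) and Egr2 (-0.86 ± 0.33). For the interaction they were Malt1 (-0.91) and Card9 (0.85), Cd93 (-0.55) and Klrk1 (-0.47), and Cxcl1 (-1.52) and Il10 (-1.09).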

How the data were processed

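Single-cell libraries were made from each mouse with the 10x Genomics 3' v2 kit. The authors deposited 1 table of raw UMI counts per gene and barcode, with no normalization. The submitters' processing notes name Cell Ranger, STAR 2.6.1a, R 3.5.1 and mm10. These notes do not state which annotation was used or whether barcodes were filtered. Symbols (28339 of 28692 genes) and positions came from GENCODE M21. Mice were read from barcode suffixes, and total depth ranged from 4489342 to 10293703 UMIs.

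Counts of barcodes with at least 1000 UMIs were summed per mouse and class and tested with edgeR 4.0.16 (R 4.3.3; TMM, quasi-likelihood F test, Benjamini-Hochberg adjustment over all tested genes). Genes needed over 1 CPM in at least 2 sums and a UMI in at least 5% of barcodes. The class fit used 16 sums and the interaction fit 8, both with the mouse as a block, and Ly6c2 and C1qa were left out of the tested genes of both fits. SEs are the absolute log2 fold change divided by the root of F. Alternatives included DESeq2 1.42.0, other class limits and depths, no gene filter and each mouse left out. Doublets were not called; 69 barcodes over 20000 UMIs were left out as an alternative. The scripts were tested on simulated data.

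The receptors and gene lists were chosen with earlier results of these data known. Named were all receptors, list genes that passed, except 1 that is not reported here, or else the 2 with the largest change, and for each receptor the 3 genes of highest correlation.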

Additional observations from a re-analysis of the deposited data

How the results depend on the processing

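A receptor value within its own SE of 0 was taken to have no direction. Over 1352 receptor values recomputed under the alternatives, 1250 kept their direction and their side of the threshold, 70 lost a call, 12 gained one and 20 turned; 37 of the lost calls were in Ly6c2- C1qa-low against Ly6c2+ C1qa-low and 17 in Ly6c2- C1qa-high against Ly6c2+ C1qa-high barcodes. In Ly6c2- C1qa-high against Ly6c2+ C1qa-low barcodes Cd209a did not pass by DESeq2 (adjusted p = 0.0628), without the mouse block (adjusted p = 0.0569) or with C1qa-high from 1 UMI (adjusted p = 0.0876), and Clec10a passed with C1qa-high from 4 UMIs (-0.50, adjusted p = 0.0388).

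Genes called moved by over 1.5 times as follows; where not stated, the cause was not tested. For DEP against PBS in all barcodes they were 119 with no gene filter and 4 by DESeq2 (8 to 35 with a mouse left out), in Ly6c2+ C1qa-low 3 with C1qa-high from 1 UMI and 10 with no filter (0 to 15), in Ly6c2- C1qa-high 2 with C1qa-high from 4 UMIs, 88 with no filter and 6 by DESeq2 (3 to 14), and in Ly6c2- C1qa-low 80 with no filter and 3 by DESeq2 (12 to 27). A mouse left out leaves its group with 1 mouse, assumed to vary like the others. The interaction gave 7 without lymphoid-led barcodes, 1 without barcodes over 20000 UMIs, 12 with classes thinned to 2000 UMIs, 2 with thinned sums and 23 with no filter (3 to 16). Ly6c2- C1qa-high against Ly6c2+ C1qa-low gave 1284 with C1qa-high from 1 UMI and 548 with thinned sums, which test fewer genes (1543 to 1752). Ly6c2+ C1qa-high against Ly6c2+ C1qa-low gave 292 with C1qa-high from 1 UMI, 1204 with classes thinned to 2000 UMIs, 164 with thinned sums and 378 with no mouse block (483 to 672). Ly6c2- C1qa-high against Ly6c2+ C1qa-high gave 714 and 8 with C1qa-high from 1 and 4 UMIs, 113 with classes thinned to 2000 UMIs, 103 with thinned sums, 384 with no filter and 60 with no block (130 to 170). Ly6c2- C1qa-low against Ly6c2+ C1qa-low gave 113 and 638 with C1qa-high from 1 and 4 UMIs, 151 with classes thinned to 2000 UMIs, 97 with thinned sums and 96 with no block (164 to 269), and against Ly6c2- C1qa-high 563 with thinned sums and 941 with no block (1477 to 1628).

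Receptor values that turned were, for DEP in all barcodes, Clec10a (-0.021 with thinned sums; -0.032, without DEP 11, to 0.37 with a mouse left out) and Clec4b1 (-0.37 to 0.013, without PBS 3). In Ly6c2+ C1qa-low they were Clec10a (-0.50 with C1qa-high from 1 UMI, -0.00211 with classes thinned to 2000 UMIs) and Cd209a (-1.04 to 0.11, without PBS 3), and in Ly6c2- C1qa-low Clec4e (-0.80 to 0.034, without PBS 2). For the interaction they were Cd209a (-2.23 to 0.26, without PBS 3), Clec4b1 (-0.86 to 0.043, without DEP 13) and Clec12a (-0.065, without DEP 11, to 0.39). In Ly6c2+ C1qa-high against Ly6c2+ C1qa-low Clec10a was -0.95 with C1qa-high from 4 UMIs and -0.19 with classes thinned to 2000 UMIs. In Ly6c2- C1qa-high against Ly6c2+ C1qa-high Clec10a was 0.45 with C1qa-high from 4 UMIs, 0.037 with classes thinned to 2000 UMIs and -0.48 to 0.00048 (without DEP 13), Cd209a 0.10 and 2.70 with C1qa-high from 1 and 4 UMIs, Clec4b1 -0.077 with C1qa-high from 4 UMIs and -0.042 (without PBS 2) to 0.22, and Clec4a1 -0.025 with classes thinned to 2000 UMIs. Depth limited Clec4d and Cd209a most, with 571 and 1256 UMIs in all kept barcodes.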

Other observations

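Barcodes below 1000 UMIs, left out of all comparisons, also held receptor UMIs. Clec4e was at 233 CPM in the 1614 barcodes under 500 UMIs (110 UMIs; 161 to 317 CPM per mouse) and at 151 CPM in the 569 barcodes from 500 to under 1000 UMIs, against 68.9 CPM in the kept barcodes that were not lymphoid-led. Clec10a was near its kept level (67.8 CPM under 500 UMIs against 58.3). The other 7 were lower under 500 UMIs, with Clec4n at 170 against 395 CPM, Clec4a2 at 131 against 423, Clec4a1 at 117 against 272, Clec4b1 at 70.0 against 260, Clec12a at 86.9 against 132, Cd209a at 8.48 against 39.4 and Clec4d at 6.36 against 19.1 CPM. Ly6c2 itself was at 484 CPM in lymphoid-led barcodes against 184 in the other kept ones, but its thinned shares were closer, at 16.6% and 14.6%. Of the 157 lymphoid-led barcodes, 16 were Ly6c2+ C1qa-low and 10 Ly6c2+ C1qa-high. Another 39 were Ly6c2- C1qa-high and 92 Ly6c2- C1qa-low.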
